A study of Mus musculus with 20 samples.

Results

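The 32 genes described here encode proteins that sense, relieve and signal a load of unfolded protein in the endoplasmic reticulum (ER), the compartment in which secreted and membrane proteins are folded. They were chosen by name, with earlier results of these data known, and make up 32 of the 23284 genes in the tables. By role they fall into 4 genes of stress sensing, here called sensors (Atf6, Ern1, Eif2ak3 and the effector Xbp1), 15 folding genes (here called chaperones: Hspa5, Hsp90b1, Calr, Canx, Pdia3, Pdia4, Pdia6, P4hb, Dnajb9, Dnajb11, Dnajc3, Hyou1, Sdf2l1, Creld2 and Manf), 7 genes of ER-associated degradation (Herpud1, Edem1, Sel1l, Syvn1, Derl1, Derl2 and Derl3) and 6 genes of the ATF4 branch (Atf4, Ddit3, Trib3, Asns, Chac1 and Ppp1r15a). Of these, 31 passed a filter on low values, a mean of at least 0.5 FPKM over all hearts. Derl3, a channel component of secretory cells, did not: it ranged from 0 to 0.734 FPKM and was listed at 0 in 8 of 20 hearts.

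Messenger RNA was measured in hearts of C57BL/6 mice, 20 hearts in 10 groups of 2. The sample titles name the heart but not which chambers were taken. Control mice carried floxed Wnt5a, a gene for a secreted signalling protein, and had no Cre. CKO mice carried floxed Wnt5a together with Myh6-Cre/Esr 1, a Cre recombinase fused to an estrogen receptor part and driven by a promoter of heart muscle cells, so that tamoxifen removes the gene from these cells and leaves it in the others. Hearts of either genotype were taken when tamoxifen ended, with no operation, and 2 and 4 weeks after a sham operation or transverse aortic constriction (TAC), a band on the aorta that raises the pressure load of the left ventricle. Age and sex are not in the labels, and since the controls have no Cre, the effects of Cre and of the loss of Wnt5a cannot be told apart. Within each stage every CKO heart had less Wnt5a than every control heart: 1.61 and 2.33 against 2.56 and 2.82 FPKM at the end of tamoxifen, 1.76 to 2.14 against 2.55 to 4.11 FPKM after sham, and 0.853 to 1.57 against 1.58 to 2.06 FPKM after TAC. Transcripts that map to Esr1 were 0.101 to 0.465 FPKM in control and 197 to 931 FPKM in CKO hearts, which separated them. The heart muscle gene Myh6 was 2323 to 5316 FPKM, and no heart muscle marker was at 0 in any heart.

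Several signal routes leave the stressed compartment. ERN1 (also called IRE1) splices the Xbp1 message into that of an active transcription factor, ATF6 is cut to release another, and EIF2AK3 (also called PERK) slows protein synthesis while the transcription factor ATF4 is made. XBP1 and ATF6 are known to raise chaperone and degradation genes, and ATF4 genes of amino acid supply and, through DDIT3 (CHOP), of cell death. In heart muscle, pressure load is known to engage these routes. A gene-level value does not separate the spliced from the unspliced Xbp1 message, and cleavage of ATF6 leaves no trace in it.

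Promoter sequence was looked at beside the levels. The members were chosen by name as genes of this stress response, so a high share of its elements among them is not an independent result. RefSeq sequence (GRCm38.p6, the mm10 build) of the 250 bases before the start site was at hand for 28 members and for 27025 genes in all. The ER stress response element, known as a binding sequence for ATF6 with NF-Y, was searched on both strands as CCAAT, any 9 bases and then CCACG. It was found in 9 of 28 members (32.1%) and in 35 of the 27025 genes (0.13%). Among the chaperones, 7 of 13 held it (53.8%). Syvn1 and Derl3 were the other two. Hsp90b1 held a pair of matches, of which the one farther from the start is shown. The stretches below carry a match in capitals, in the direction of the gene, and are shown because these genes are the ones followed through the results. Calr and Creld2 have the element on the opposite strand, so that it reads CGTGG first.
Hspa5 (chr2:34772020-34772049, plus strand): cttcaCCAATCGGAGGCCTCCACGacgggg
Canx (chr11:50325794-50325823, minus strand): attgaCCAATCACCACGCTCCACGaagaat
Hsp90b1 (chr10:86705632-86705661, minus strand): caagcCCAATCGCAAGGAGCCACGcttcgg
Calr (chr8:84847069-84847098, minus strand): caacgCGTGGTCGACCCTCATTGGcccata
Pdia6 (chr12:17266486-17266515, plus strand): agagaCCAATGAAAGGCGGCCACGgcgtgg
Syvn1 (chr19:6046527-6046556, plus strand): cgcaaCCAATCGGCGGTAGCCACGggaaca
Dnajc3 (chr14:118937822-118937851, plus strand): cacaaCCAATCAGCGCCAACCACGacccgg
Creld2 (chr15:88819515-88819544, plus strand): cttctCGTGGCGAGCCTCAATTGGtccaca

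Herpud1 held the related ERSE-II element, searched on both strands as ATTGG, any 1 base and then CCACG, which occurred in 10 of the 27025 genes (0.037%) and in no other of the 28 members. Its window also held TTGCATCA, a form of the composite site that ATF4 binds with a partner, found in 248 genes (0.918%) and, among the members, in Herpud1 and Chac1. The ERSE-II element starts 52 bases before the start site and the ATF4-type site lies upstream of it. The whole window is printed because Herpud1 had the smallest p of all members in the main comparison. Capitals mark, in order, TTGCATCA and the ERSE-II element.
Herpud1 (chr8:94386179-94386428, plus strand): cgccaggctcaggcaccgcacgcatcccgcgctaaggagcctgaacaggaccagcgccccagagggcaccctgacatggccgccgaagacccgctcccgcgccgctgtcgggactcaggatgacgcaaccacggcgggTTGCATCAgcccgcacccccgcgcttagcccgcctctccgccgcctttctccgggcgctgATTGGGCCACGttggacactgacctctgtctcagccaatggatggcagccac
TGACGTGG, a core of the site that XBP1 binds, was in the windows of 163 genes (0.603%) and of no member. A match is a run of letters, not a measured binding site, and the motifs overlapped nowhere in the members.

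The FPKM scale is per length and per number of fragments, so levels can be compared between genes. Hspa5, the gene for the central chaperone BiP, was the most abundant member, with a mean of 378 FPKM over the 20 hearts. Hsp90b1, the ER member of the HSP90 family, followed at a mean of 219 FPKM and the calcium-binding lectin chaperone gene Calr at 199 FPKM. The sensor genes Ern1 and Eif2ak3 were low, at means of 2.06 and 3.22 FPKM, while the sensor gene Atf6 was at 24.1 FPKM. Chac1, Asns and Trib3, which are known to be driven by ATF4, had means of 1.89, 1.87 and 1.68 FPKM, so that their values rest on few fragments. The highest heart exceeded the lowest by 1.29 times for Derl1, a channel component of degradation, and by 9.5 times for Chac1.

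One control heart stood apart. Heart 7, of the control sham group at 4 weeks, had the highest level of all 20 hearts in 13 of the 15 chaperones. Its chaperones lay a mean of 0.64 log2 units above their means over all hearts, while the next heart lay 0.22 above. Values without it are given below. Its neighbour in the group, heart 6, lay 0.12 above. Summed smooth muscle markers were also highest in heart 7, at 330 FPKM. They were 155 FPKM in heart 6 and at most 238 FPKM in the other hearts, and their part was not tested.

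**Figure D1:**
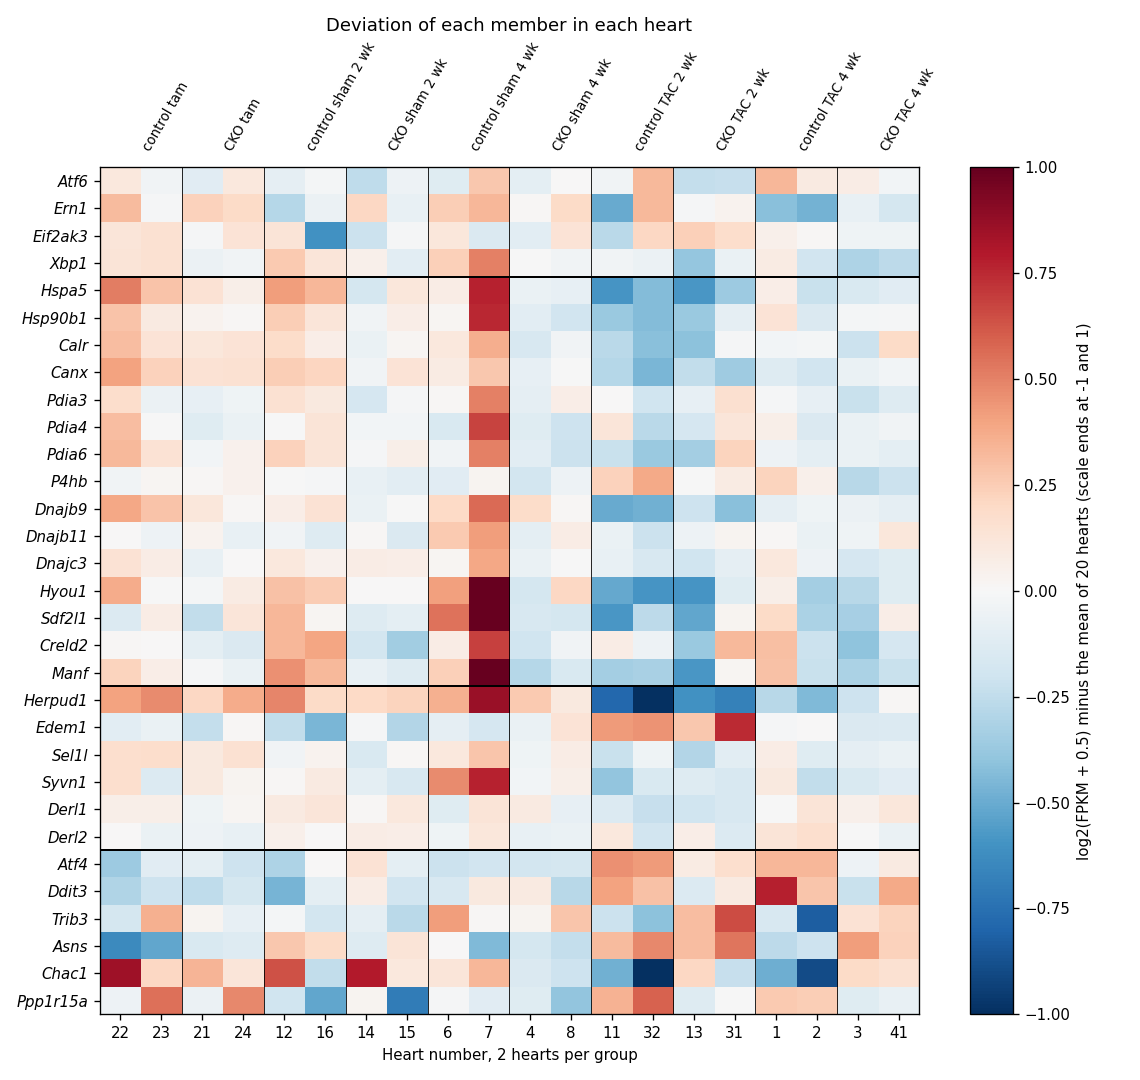
Deviation of the 31 tested members in each heart. Each column is a heart, in pairs by group (tam, end of tamoxifen), each row a gene, and the colour is log2(FPKM + 0.5) minus the gene's mean over the 20 hearts, cut at -1 and 1. Black lines part the 4 roles. The chaperone block is darkest red in heart 7 and blue in most TAC hearts, and Atf4 is red in the 4 control TAC hearts.

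The first comparison asks what pressure load did in control hearts. After TAC 10 of the 15 chaperones, Herpud1 and Xbp1 were lower, while Atf4, Ddit3 and Ppp1r15a were higher. Members moved in both directions among the chaperones, the degradation genes and the ATF4 branch. Taking both times together, 19 of the 31 tested members passed limma's test (Benjamini-Hochberg adjusted p under 0.05 over all 12589 genes tested), 5 higher and 14 lower. Of all genes tested, 31.4% passed, 15.3% higher and 16.1% lower. An unadjusted p under 0.05 was reached by 24 members, and by 41.7% of all genes. The median log2 difference was -0.33 over the members and -0.0023 over all genes. In 15 members the 4 TAC hearts and the 4 sham hearts did not overlap, as in 12.2% of all genes for lower and 11.4% for higher levels. Beside this, 8 of 10 fibroblast markers and 7 of 10 macrophage markers rose and 4 of 10 heart muscle markers fell. Summed fibroblast markers were 720 to 814 FPKM in control sham and 987 to 1848 FPKM in control TAC hearts, and summed macrophage markers 387 to 746 and 604 to 914 FPKM. In tissue of mixed cells, fewer cells of a type and less RNA per cell cannot be told apart, and the part of cell mixture in the results below was not tested.

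Over both times Xbp1 was the one gene of the sensor group that changed. Control sham hearts had 62.7 and 56.8 FPKM at 2 weeks and 61.8 and 74.0 FPKM at 4 weeks, against 50.8 and 50.1 FPKM and 55.1 and 45.7 FPKM in control TAC hearts. All 4 TAC hearts were below all 4 sham hearts. The fall was 0.33 ± 0.08 on the log2 scale (SE; limma adjusted p = 0.0085). Ern1, the gene of the enzyme that splices Xbp1, was 1.57 and 1.92 FPKM at 2 weeks and 2.49 and 2.67 FPKM at 4 weeks after sham, and 1.27 and 2.66 FPKM and 1.38 and 1.32 FPKM after TAC. The groups overlapped through 1 TAC heart at 2 weeks, and the log2 difference of -0.33 ± 0.16 did not pass (limma adjusted p = 0.13). At 4 weeks alone, where the hearts did not overlap, Ern1 fell by 0.74 ± 0.22 (limma adjusted p = 0.042), a call that was lost in 10 of 20 refits that left out 1 heart each, heart 7 among them. Atf6 was 22.4 and 23.6 FPKM at 2 weeks and 21.9 and 29.0 FPKM at 4 weeks after sham, and 23.3 and 30.0 FPKM and 30.3 and 25.5 FPKM after TAC, which overlapped. Its log2 difference was 0.17 ± 0.10 (limma adjusted p = 0.24), and that of Eif2ak3 was 0.13 ± 0.15 (adjusted p = 0.55).

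Of the 15 chaperones, 10 fell, 1 rose and 4 did not pass, with a median log2 difference of -0.39. Hspa5 was 491 and 462 FPKM in the control sham hearts at 2 weeks and 387 and 625 FPKM at 4 weeks. In control TAC hearts it was 243 and 271 FPKM at 2 weeks and 385 and 315 FPKM at 4 weeks. The sides did not overlap, but the lowest sham heart (387 FPKM) and the highest TAC heart (385 FPKM), both at 4 weeks, were nearly level. Hspa5 fell by 0.69 ± 0.13 on the log2 scale, to 0.618 of the sham level (limma adjusted p = 9.2e-04).

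Canx, the gene of the membrane lectin chaperone calnexin, had the smallest p of the group. It was 113 and 110 FPKM at 2 weeks and 101 and 115 FPKM at 4 weeks after sham, and 77.9 and 69.0 FPKM and 87.0 and 83.1 FPKM after TAC. Every TAC heart lay below every sham heart, and Canx fell by 0.47 ± 0.07 (limma adjusted p = 1.4e-04). The BiP co-chaperone gene Dnajb9 was 26.4 and 27.9 FPKM at 2 weeks and 28.9 and 37.4 FPKM at 4 weeks after sham. After TAC it was 17.6 and 17.8 FPKM at 2 weeks and 23.6 and 24.3 FPKM at 4 weeks, again without overlap, and it fell by 0.52 ± 0.08 (limma adjusted p = 2.8e-04). Hyou1, which exchanges nucleotide on BiP, was 15.6 and 15.2 FPKM at 2 weeks and 16.9 and 26.8 FPKM at 4 weeks after sham, and 8.69 and 8.20 FPKM and 13.2 and 9.88 FPKM after TAC. The groups did not overlap, and the fall was 0.85 ± 0.15 (limma adjusted p = 8.35e-04).

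The other 6 chaperones that fell were Sdf2l1 (log2 difference -0.86), Manf (-0.68), Hsp90b1 (-0.49), the disulfide isomerase gene Pdia6 (-0.39), Calr (-0.36) and the BiP co-chaperone gene Dnajb11 (-0.21). Pdia3, Creld2, Pdia4 and Dnajc3 had log2 differences from -0.34 to -0.19 and did not pass. P4hb moved the other way. It encodes protein disulfide isomerase, which is also the beta subunit of the collagen prolyl 4-hydroxylase. It was 140 and 139 FPKM at 2 weeks and 130 and 143 FPKM at 4 weeks after sham, and 164 and 183 FPKM and 164 and 145 FPKM after TAC. All TAC hearts were above all sham hearts, and P4hb rose by 0.24 ± 0.06 (limma adjusted p = 0.0064).

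The count of chaperones depends on heart 7. Without it, 7 chaperones fell and 1 rose, the median was -0.30, and 16 of 31 members passed (4 higher, 12 lower) where 22.8% of all genes did. Calr, Pdia6, Dnajb11 and Ppp1r15a were then not called, and Trib3 was. Hspa5 (-0.52), Canx (-0.42), Dnajb9 (-0.43), Hyou1 (-0.69), Sdf2l1 (-0.60), Manf (-0.47) and Hsp90b1 (-0.31) still fell by limma. The log2 differences of Calr, Pdia6 and Dnajb11 were -0.30, -0.26 and -0.17.

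Among the degradation genes, 2 of 6 fell, 1 rose and 3 did not pass. Herpud1, a membrane protein that organises the degradation complex, had the largest fall of all members. Control sham hearts had 119 and 96.8 FPKM at 2 weeks and 109 and 155 FPKM at 4 weeks. Control TAC hearts had 49.0 and 38.1 FPKM at 2 weeks and 69.7 and 62.2 FPKM at 4 weeks. The sides did not overlap, and the highest TAC heart, at 69.7 FPKM, was well below the lowest sham heart. Herpud1 fell by 1.14 ± 0.11, to 0.454 of the sham level (limma adjusted p = 8.3e-06), and by 1.01 ± 0.10 without heart 7 (adjusted p = 3.8e-05).

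Syvn1, the ubiquitin ligase of the same complex (HRD1), was 7.91 and 8.36 FPKM at 2 weeks and 11.0 and 13.7 FPKM at 4 weeks after sham. It was 5.83 and 6.99 FPKM and 8.44 and 6.53 FPKM after TAC, with 1 TAC heart at 4 weeks inside the sham range. It fell by 0.51 ± 0.10 (limma adjusted p = 0.0016). Edem1, which directs misfolded glycoproteins to degradation, moved up. It was 2.78 and 2.34 FPKM at 2 weeks and 3.16 and 2.96 FPKM at 4 weeks after sham, and 4.74 and 4.83 FPKM and 3.37 and 3.40 FPKM after TAC. The TAC hearts were all above the sham hearts, most clearly at 2 weeks, and Edem1 rose by 0.46 ± 0.11 (limma adjusted p = 0.00765). Sel1l, Derl1 and Derl2 had log2 differences of -0.17, -0.11 and 0.02 and did not pass.

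In the ATF4 branch, 3 of 6 rose, 1 fell and 2 did not pass. Atf4 itself was 66.5 and 82.7 FPKM at 2 weeks and 70.9 and 72.3 FPKM at 4 weeks after sham. After TAC it was 113 and 111 FPKM at 2 weeks and 104 and 104 FPKM at 4 weeks. The 4 TAC hearts lay in a narrow band above all sham hearts, and Atf4 rose by 0.56 ± 0.08, to 1.48 times the sham level (limma adjusted p = 1.5e-04). Ddit3, the gene of the transcription factor CHOP, was 22.2 and 28.9 FPKM at 2 weeks and 27.6 and 33.1 FPKM at 4 weeks after sham, and 40.9 and 37.9 FPKM and 53.5 and 37.6 FPKM after TAC. It rose without overlap by 0.59 ± 0.15 (limma adjusted p = 0.0079). Exons of Ddit3 are overlapped by Mars on the opposite strand in GENCODE M21, and the sources used here do not give whether the counting used strand, so reads of both genes cannot be told apart.

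Ppp1r15a, the phosphatase subunit GADD34 that restarts protein synthesis, rose by 0.57 ± 0.17 (limma adjusted p = 0.020). Chac1, which degrades glutathione and is known as a target of ATF4, went down where Atf4 went up. It was 2.99 and 1.40 FPKM at 2 weeks and 1.95 and 2.33 FPKM at 4 weeks after sham, and 1.12 and 0.373 FPKM and 1.11 and 0.713 FPKM after TAC. The hearts did not overlap, and Chac1 fell by 1.02 ± 0.24 on the log2(FPKM + 0.5) scale (limma adjusted p = 0.0062), which understates changes at such low levels. Trib3, a pseudokinase gene driven by ATF4 and CHOP, had a log2 difference of -0.46 ± 0.17 (limma adjusted p = 0.053) and Asns, the asparagine synthetase gene, one of 0.08 ± 0.12 (adjusted p = 0.66), or -0.03 without heart 7.

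**Figure D2:**
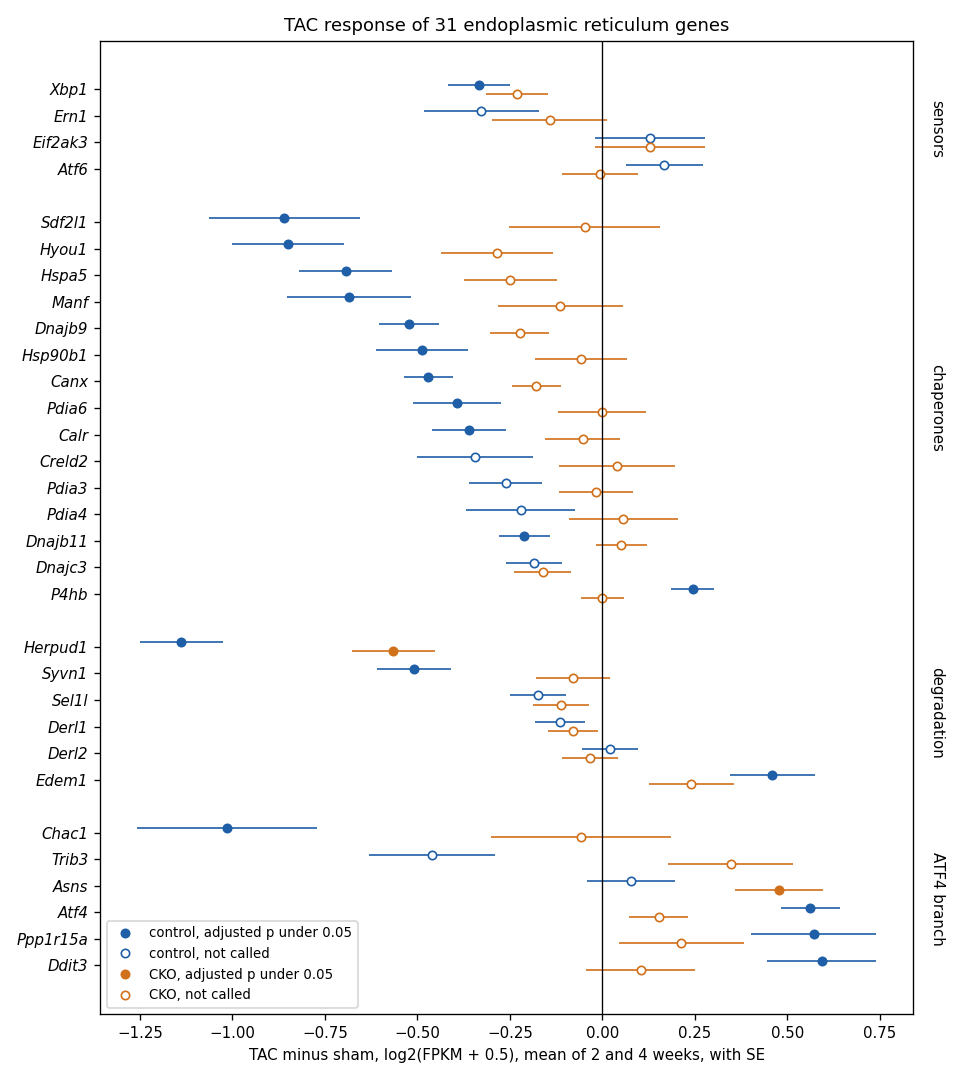
TAC minus sham in log2(FPKM + 0.5), mean of 2 and 4 weeks, for the 31 tested members by role. Blue is control and orange is CKO, bars are the SE of the limma fit, and filled points passed an adjusted p under 0.05. In control hearts 19 points are filled and 14 of the 15 chaperones lie left of 0. In CKO hearts Herpud1 and Asns are filled.

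Set beside the promoters, 9 of the 10 members with an ERSE or ERSE-II match were tested. Of these, 7 fell and none rose in control TAC hearts, where 16.1% of all genes fell and 15.3% rose. The exceptions were Dnajc3 and Creld2, which did not pass. The median log2 difference of the 9 was -0.47. Without heart 7, Calr and Pdia6 among them had -0.30 and -0.26 in place of -0.36 and -0.39. Of the 18 members with neither match, 5 fell, 5 rose and 8 did not pass, with a median of -0.19. Match and role went together. An ERSE was held by 7 of 13 chaperones and 0 of 6 ATF4 branch genes, so the medians also compare roles. The Canx window is shown whole, with its match in capitals, beside the Herpud1 window above.
Canx (chr11:50325674-50325923, minus strand): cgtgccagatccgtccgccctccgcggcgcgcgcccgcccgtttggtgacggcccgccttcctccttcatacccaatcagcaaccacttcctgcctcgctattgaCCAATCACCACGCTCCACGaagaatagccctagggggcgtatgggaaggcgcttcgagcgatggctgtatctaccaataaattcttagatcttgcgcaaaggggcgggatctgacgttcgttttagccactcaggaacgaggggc
Falls were also seen without a match, for Xbp1, Dnajb9, Dnajb11, Sdf2l1 and Chac1. The Dnajb9 window lies wholly inside the gene as placed by GENCODE M21, so bases before that start were not searched. Parts of other windows, such as those of Pdia3 and Hspa5, also lie inside the gene by that annotation. The printed Hspa5 match is in that part, after the GENCODE M21 start of the gene. The promoters of Hyou1, Manf, Atf6 and Derl1 were not analysed here. These promoter counts are a description of 28 genes, not a test.

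At the separate times, 15 members passed in control hearts at 2 weeks (5 higher, 10 lower), where 23.8% of all genes did (an unadjusted p under 0.05 was reached by 17 members and by 36.1% of all genes). At 4 weeks 10 passed (1 higher, 9 lower), against 12.7% of all genes, 6.36% higher and 6.37% lower. Canx, Dnajb9, Hyou1, Herpud1 and Atf4 passed at both. The 4-week calls of all chaperones called then, with Canx, Dnajb9 and Hyou1 among them, were lost without heart 7. Those of Canx, Dnajb9 and Hyou1 were also lost without control TAC heart 2. The log2 fall of Herpud1 was 1.30 ± 0.16 at 2 weeks (limma adjusted p = 9.9e-05) and 0.97 ± 0.16 at 4 weeks (adjusted p = 0.0019). Atf4 was higher by 0.59 ± 0.11 and 0.53 ± 0.11. At 4 weeks the count rests on single hearts, namely heart 7 and control TAC heart 2. Without heart 7 the 4-week median over the members was -0.13 in place of -0.31. That over the chaperones was -0.13 in place of -0.34. Without heart 7 the 4-week differences were -0.72 for Herpud1, 0.55 for Atf4, -0.26 for Dnajb9, -0.55 for Hyou1 and -0.24 for Canx. At 2 weeks the count of members called fell when control TAC heart 32 or control sham heart 12 or 16 was left out. No member passed for a difference between the 4-week and the 2-week response in control hearts by limma, where 0.00794% of all genes passed, and 4 members (and 13.6% of all genes) had an unadjusted p under 0.05.

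The next comparison puts the same load on CKO hearts. Here 2 of the 31 members passed limma over both times, Herpud1 lower and Asns higher, where 9.11% of all genes passed, 4.23% higher and 4.89% lower. Herpud1 was 97.5 and 99.0 FPKM at 2 weeks and 102 and 90.9 FPKM at 4 weeks in CKO sham hearts. In CKO TAC hearts it was 55.5 and 53.0 FPKM at 2 weeks and 73.3 and 85.5 FPKM at 4 weeks. The sides did not overlap, the 4-week TAC hearts came closer to sham, and Herpud1 fell by 0.57 ± 0.11 (limma adjusted p = 0.0091). Asns was 1.61 and 2.03 FPKM at 2 weeks and 1.54 and 1.46 FPKM at 4 weeks after sham, and 2.36 and 2.85 FPKM and 2.59 and 2.21 FPKM after TAC. It rose by 0.48 ± 0.12 (limma adjusted p = 0.025), a call that was lost without CKO TAC heart 3 or 31 or CKO sham heart 8 or 14.

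The chaperones of CKO hearts had a median log2 difference of -0.05, and none of the 15 passed by limma (2 had an unadjusted p under 0.05, as had 25.9% of all genes). Hspa5 was 325 and 396 FPKM at 2 weeks and 350 and 347 FPKM at 4 weeks after sham, and 245 and 285 FPKM and 331 and 339 FPKM after TAC. The 2-week TAC hearts were below all sham hearts while the 4-week ones lay among them, and the log2 difference was -0.25 ± 0.13 (limma adjusted p = 0.23). Xbp1 was 53.9 and 48.3 FPKM at 2 weeks and 52.1 and 50.9 FPKM at 4 weeks after sham, and 39.7 and 49.9 FPKM and 42.1 and 43.4 FPKM after TAC. Its log2 difference was -0.23 ± 0.08 (limma adjusted p = 0.10), with 1 TAC heart inside the sham range. Canx, at 92.7, 105, 89.8 and 94.9 FPKM after sham and 79.9, 74.1, 91.0 and 93.2 FPKM after TAC, had -0.18 ± 0.07 (adjusted p = 0.11).

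In CKO sham hearts Atf4 was 91.1 and 77.0 FPKM at 2 weeks and 72.5 and 73.0 FPKM at 4 weeks. After TAC it was 87.5 and 92.6 FPKM at 2 weeks and 79.5 and 88.1 FPKM at 4 weeks, which overlapped the sham hearts. The log2 difference was 0.15 ± 0.08 (limma adjusted p = 0.25). Ddit3 was 32.6, 27.0, 32.9 and 25.5 FPKM after sham and 28.1, 33.0, 26.4 and 40.4 FPKM after TAC, also overlapping, with a log2 difference of 0.10 ± 0.15 (limma adjusted p = 0.71). Chac1 was 3.39, 1.93, 1.54 and 1.45 FPKM after sham and 2.1, 1.42, 2.07 and 2.00 FPKM after TAC, a log2 difference of -0.06 ± 0.24 (adjusted p = 0.91).

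At 2 weeks alone, 3 members passed in CKO hearts, Herpud1 (-0.85) and Canx (-0.35) lower and Edem1 (0.66) higher, beside 19.3% of all genes (9.21% lower). The calls of Canx and Edem1 were lost without CKO sham heart 15 or CKO TAC heart 31, and without the latter the difference of Edem1 was 0.42 (limma adjusted p = 0.18). At 4 weeks none passed by limma, where 0.262% of all genes did, and 2 members (and 12.7% of all genes) had an unadjusted p under 0.05. Edem1 was the one member whose CKO response differed between the times. It was 3.36 and 2.68 FPKM after sham and 4.19 and 6.05 FPKM after TAC at 2 weeks, and 3.22 and 3.78 FPKM and 3.02 and 3.03 FPKM at 4 weeks. The TAC hearts were above sham at 2 weeks and below it at 4 weeks. The 4-week response was lower than the 2-week one by a log2 difference of -0.84 ± 0.23 (limma adjusted p = 0.044), in a comparison that 6.54% of all genes passed, 2.71% higher and 3.83% lower. An unadjusted p under 0.05 was reached by 5 members and by 25.7% of all genes. The call was lost in 14 of 20 refits that left out 1 heart each.

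**Figure D3:**
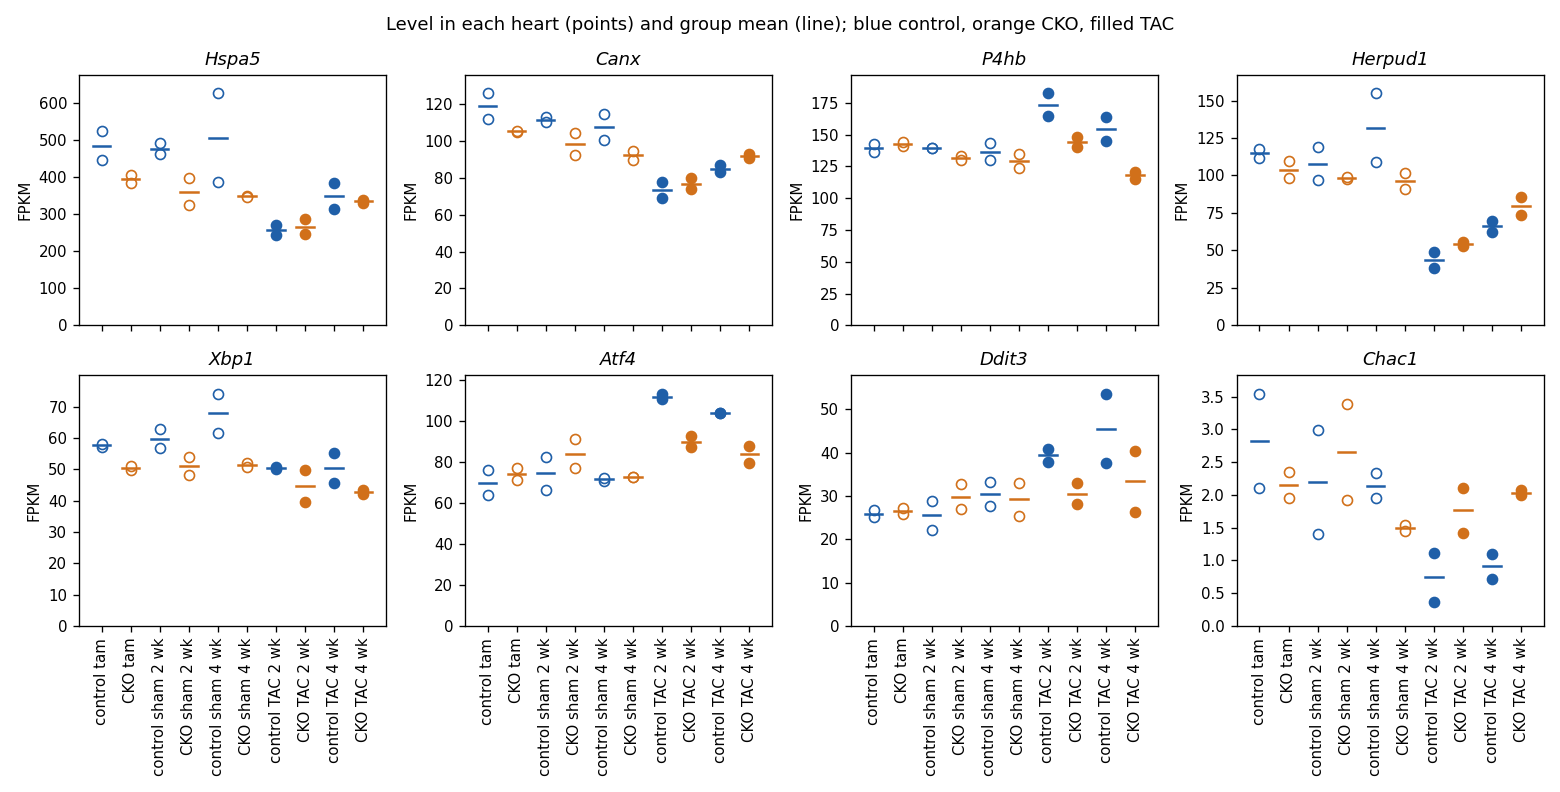
Level of 8 members in each heart, in FPKM, by group (tam, end of tamoxifen). Points are hearts, short lines group means, blue is control and orange CKO, and filled points are TAC. Herpud1 and Hspa5 are lowest in the 2-week TAC groups of both genotypes, while Atf4 is highest in the 4 control TAC hearts, at 104 to 113 FPKM, above all CKO TAC hearts.

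Whether the response differed between genotypes was tested as the CKO response minus the control response over both times. No member passed by limma, where 1.25% of all genes did (157 genes), and 18 of 31 members had an unadjusted p under 0.05, beside 13.3% of all genes. Atf4 had the smallest p, with a log2 difference of -0.41 ± 0.11 (limma adjusted p = 0.10). Herpud1 followed with 0.57 ± 0.16 (adjusted p = 0.11), and Canx with 0.29 ± 0.09 was first among the chaperones (adjusted p = 0.17). In the sensor group Atf6 was first, with -0.17 ± 0.15 (adjusted p = 0.68). The median over the chaperones was 0.31, that over all genes 0.01. So the count of 19 in control and 2 in CKO hearts does not show that single members responded differently. Leaving out control sham heart 6, which leaves heart 7 alone in its group, gave 4 members, among them Herpud1 at 0.70 (adjusted p = 0.035). Without heart 7 none passed, the chaperone median was 0.24, and the differences were -0.42 for Atf4, 0.45 for Herpud1, 0.24 for Canx and -0.27 for Atf6.

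Both responses are measured against sham hearts, and in these the genotypes were not level. In sham hearts of both times all 15 chaperones had a lower mean in CKO than in control hearts, with a median log2 difference of -0.26. None of the 31 members passed limma (adjusted p = 1 for each), where 0.00794% of all genes did, and 15 members had an unadjusted p under 0.05, beside 4.11% of all genes. Manf, a secreted protein retained in the ER, was 39.8, 36.2, 34.1 and 62.9 FPKM in control and 27.3, 26.3, 23.5 and 25.9 FPKM in CKO sham hearts. The 4 CKO hearts lay below the 4 control hearts, and the log2 difference was -0.70 ± 0.17. Exons of Manf are overlapped by Rbm15b on the same strand in GENCODE M21, so reads of both genes may not be told apart. Sdf2l1, part of a BiP complex, was 10.5, 8.32, 12.2 and 25.5 FPKM in control and 7.48, 7.61, 7.30 and 7.18 FPKM in CKO sham hearts, with a log2 difference of -0.76 ± 0.20. Hspa5, at -0.45 ± 0.13, overlapped between the genotypes. Without heart 7 the chaperone median was -0.15, and the differences were -0.48 ± 0.14 for Manf, -0.50 ± 0.18 for Sdf2l1 and -0.28 ± 0.10 for Hspa5. These control sham hearts also enter the TAC response of control hearts, so the 2 sets of values are not independent. The values of Manf and Sdf2l1 in every heart are given because of what was seen in them.

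In TAC hearts the chaperone median of CKO minus control was 0.13 at 2 weeks and -0.06 at 4 weeks. At 2 weeks no member passed by limma, where 0.413% of all genes did, and 6 members (and 12.8% of all genes) had an unadjusted p under 0.05. Of these, 4 were of the ATF4 branch. At 4 weeks 6 members (and 11.6% of all genes) had an unadjusted p under 0.05, 5 of them of the ATF4 branch. That branch moved both ways, with 3 members higher and 3 lower in CKO hearts at each time. By limma P4hb alone passed at 4 weeks, where 0.834% of all genes did (0.604% lower). P4hb was 164 and 145 FPKM in control and 116 and 121 FPKM in CKO TAC hearts at 4 weeks, and 164 and 183 FPKM against 140 and 148 FPKM at 2 weeks. The CKO hearts were lower at both times, with a log2 difference of -0.38 ± 0.08 at 4 weeks (limma adjusted p = 0.048). The call was lost in 16 of 20 refits that left out 1 heart each. In CKO hearts of both times together P4hb was 131 ± 4.93 FPKM after sham and 131 ± 15.5 FPKM after TAC (SD, n = 4 each). These means hide a split by time, since at 4 weeks the CKO TAC hearts lay below the CKO sham hearts.

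Of 10 fibroblast markers, 2 were lower in CKO than in control TAC hearts at 4 weeks by limma and none passed at 2 weeks, with 6 at an unadjusted p under 0.05 at each time. In another contrast, 4 of the 10 passed for a difference of the TAC responses, Postn, Lum, Dcn and Col1a2, all with a smaller response in CKO hearts, and their summed level was 644 to 1342 FPKM in CKO TAC against 987 to 1848 FPKM in control TAC hearts. No fibroblast marker was at 0 in any heart. The part of fibroblasts in the P4hb result was not tested.

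At the end of tamoxifen, before any operation, no member passed between genotypes by limma, where 0.0159% of all genes did, and 2 members (and 3.42% of all genes) had an unadjusted p under 0.05. Hspa5 was 523 and 446 FPKM in control and 406 and 382 FPKM in CKO hearts, and Xbp1 57.2 and 58.1 FPKM against 49.9 and 51.0 FPKM. In both genes the CKO hearts were the lower ones, as in 19% of all genes. Transcripts of the atrial light chain gene Myl7 were 323 and 50.6 FPKM in these CKO hearts and 0 and 1.07 FPKM in the control hearts, and their part in the difference was not tested. Herpud1 was 112 and 118 FPKM against 98.2 and 110 FPKM, Atf4 63.9 and 76.1 FPKM against 77.0 and 71.5 FPKM, and Ddit3 25.0 and 26.8 FPKM against 25.8 and 27.3 FPKM. The chaperone median of CKO minus control was -0.15. No member passed between sham hearts and the end of tamoxifen by limma (where 3.36% of all genes passed; 3 members and 20.6% of all genes had an unadjusted p under 0.05). The smallest p there was that of Ppp1r15a, at -0.48 ± 0.15 (adjusted p = 0.084), which was 18.2 to 28.1 FPKM at the end of tamoxifen and 11.5 to 19.4 FPKM after sham. Summed immediate early genes, which react to handling, were 409 to 982 FPKM at the end of tamoxifen and 139 to 419 FPKM after sham, and their part in it was not tested.

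**Figure D4:**
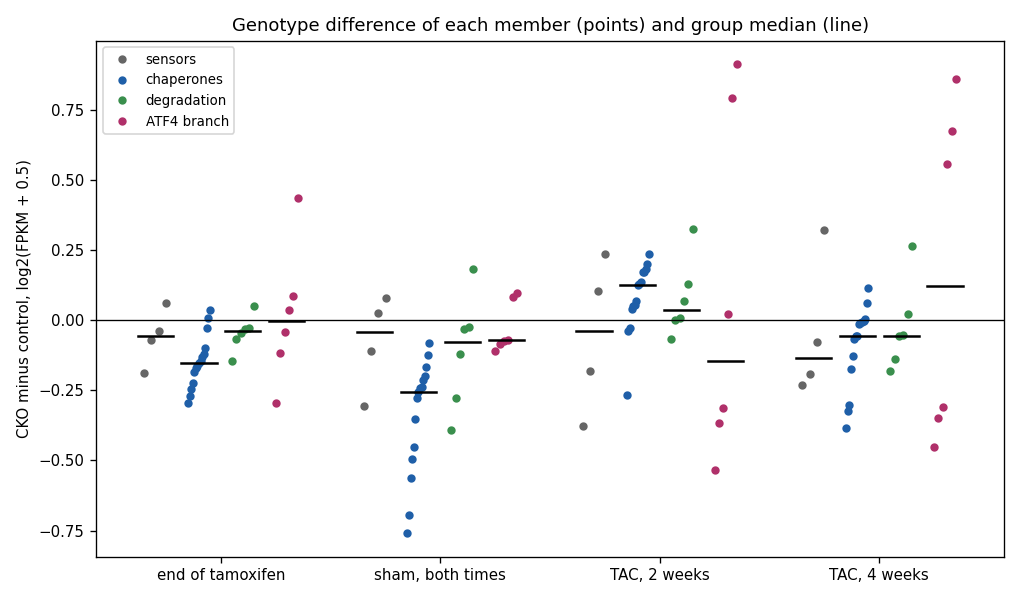
CKO minus control in log2(FPKM + 0.5) for each tested member (points) at 4 stages, by role, with the median of each role as a black line. The 15 chaperones lie below 0 in sham hearts, with a median of -0.26, and on both sides of 0 in TAC hearts. P4hb at 4 weeks after TAC, at -0.38, is the one point that passed the test.

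Genes that work beside the members gave a mixed picture in control hearts after TAC, beside the 31.4% of all genes that passed. Of 14 further genes of stress sensing and processing tested, 2 rose and 1 fell, with Creb3, a membrane-bound transcription factor, at 0.67 and Tmbim6, an inhibitor of ER stress death, at -0.28. Of 27 further folding enzymes 5 rose and 3 fell, among them Txndc5 (0.32) and Fkbp11 (1.02) up and the BiP co-factor Sil1 (-0.32) down. Of 15 genes of collagen folding 6 rose and 2 fell, led by the prolyl isomerase gene Ppib (0.45) and the retrieval receptor gene Kdelr3 (1.21). Of 23 genes of protein translocation and signal peptide removal 3 rose and 3 fell. Spcs3, of the signal peptidase, was up by 0.72. Of 21 further degradation genes 2 rose and 2 fell, with the ligase gene March6 at -0.42.

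Of 27 further targets of ATF4 tested, 10 rose and 3 fell in control hearts. The stress regulator Nupr1 rose by 1.64 and the asparaginyl-tRNA synthetase gene Nars by 0.37, while Slc7a1, a transporter of cationic amino acids, fell by 0.91. In CKO hearts, where 9.11% of all genes passed (4.23% higher), 2 of the 27 ATF4 targets, 1 of the 27 folding enzymes, 2 of the 14 genes of sensing and processing and 2 of the 15 of collagen folding rose. There 1 gene of collagen folding and 1 of the 21 degradation genes fell, and none of the 23 of translocation passed by limma (5 had an unadjusted p under 0.05). A difference of the responses between genotypes passed for Nupr1, at -1.54 ± 0.29 (limma adjusted p = 0.021), and for Creb3, at -0.41 ± 0.09 (adjusted p = 0.035), both with a smaller rise in CKO hearts. Selenos, Fam8a1 and Mzb1, 3 genes of these lists, were not analysed here.

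Other marks moved with the same comparison in control hearts. Of 14 clock genes 5 fell after TAC and none rose, led by Hlf (-1.07), and their summed level was 127 to 187 FPKM after sham and 103 to 120 FPKM after TAC. Of 14 immediate early genes 4 rose. Transcripts of the atrial light chain Myl7 were at or above 10 FPKM in 5 hearts, namely control TAC heart 11, control sham heart 16, CKO sham heart 14 and both CKO hearts at the end of tamoxifen. Without these, 11 members passed in control hearts over both times (4 higher, 7 lower), 4 chaperones among the falls, where 18.9% of all genes did. The median of the chaperones was then -0.46. Leaving out these hearts also left control TAC heart 32 and control sham heart 12 alone in their 2-week groups. The loss of hearts and the loss of atrial tissue cannot be told apart in these counts. The part of time of day and of atrial tissue was not tested.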

How the data were processed

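Total RNA came from 20 mouse hearts (miRNeasy Mini kit), and TruSeq Stranded mRNA libraries were prepared from it, per the labels' protocols. Per the submitters' processing notes, TopHat2 2.1.1, Bowtie2 (version not given in the sources used here), Cuffdiff 2.2.1 and the build mm10 were used. The authors deposited FPKM, fragments scaled by transcript length and library size, as 1 table of 23284 genes per heart. The annotation, filters and strand setting are not given in the sources used here.

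FPKM summed to 579596 to 713671 per heart and 14788 to 15374 genes were above 0. Absolute depth is unknown. The steps between low values of 2326 genes, 96.9% of them within 5% of whole multiples, gave a relative depth from 0.877 to 1.205, a ratio of 1.375 between hearts, and the values of low genes rest on few fragments. Hearts of a group correlated at 0.963 to 0.978 across genes and hearts of different groups at 0.935 to 0.979 (Pearson, log2 scale). No 2 tables were identical. The labels number the hearts but do not say that they are of separate litters or days, so p-values measure the spread between these hearts.

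The 12589 genes whose mean reached 0.5 FPKM were analysed as log2(FPKM + 0.5). One limma 3.58.1 fit (R 4.3.3) held the means of the 10 groups, with a variance prior that follows the mean and 10 residual degrees of freedom. The 14 comparisons are contrasts of group means, with both times weighted equally, and p-values are two-sided, adjusted by Benjamini-Hochberg over all genes tested. Promoters were matched for 28 of 32 members. The fit was checked on simulated data. Errors are SE of the fit on log2 values and SD on FPKM.

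The members and lists were chosen with earlier results of these data known. Each heart's values are printed for Hspa5, Xbp1, Herpud1, Atf4 and Ddit3, for up to 3 members per role with the smallest p for TAC in control hearts, for the 1 per role with the smallest p for the difference of responses, and for members called in such a difference or between genotypes; Asns, Manf and Sdf2l1 were added after their values were seen. From the other lists up to 3 genes by p among those called may be named. Positions are from GENCODE M21 and promoters from RefSeq GRCm38.p6. Alternatives were the pseudocount (0.1 and 1 FPKM), the filter (none and 3 FPKM), the scaling between hearts, the groups in the fit, the variance prior, each heart left out, and the 5 hearts in which Myl7 reached 10 FPKM left out. Exons of 11 members are overlapped by another gene.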

Additional observations from a re-analysis of the deposited data

Results flagged for a closer look

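In CKO hearts the TAC response of Edem1 was lower at 4 than at 2 weeks by a log2 difference of -0.84 (limma adjusted p = 0.044). Edem1 was flagged as the 1 of 31 tested members called in this comparison, which 6.54% of all genes passed. Its level after TAC was 4.19 and 6.05 FPKM at 2 weeks and 3.02 and 3.03 FPKM at 4 weeks. The call was lost in 14 of 20 refits without 1 heart each; without CKO TAC heart 31 the difference was -0.60 (adjusted p = 0.19).

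Other members stood out because every control TAC heart lay on one side of the sham hearts of its time and every CKO TAC heart on the other. The difference of the responses at a single time was not tested. At 2 weeks Trib3 did so, with a CKO minus control difference of the responses of 0.87 on the log2 scale: 1.33 and 1.10 FPKM after TAC in control hearts (sham 1.60 and 1.38 FPKM) and 2.14 and 2.84 FPKM in CKO hearts (sham 1.503 and 1.27 FPKM). At 4 weeks Chac1 did so with a difference of 1.26, Pdia6 with 0.39, P4hb with -0.31 and Edem1 with -0.31. The value of Pdia6 rests on control sham heart 7: without it the response of control hearts was -0.04 in place of -0.31, and the difference 0.12. Those of Chac1, P4hb and Edem1 were then 1.15, -0.38 and -0.27. Of all genes tested, 2.67% showed such a pattern at 2 weeks and 5.71% at 4 weeks. No member showed it at both times, and 4 genes of the 12589 did.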

How the results depend on the processing

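No called value changed its direction. Counts of members called stayed within 1.5 times of the reported ones, except as follows. Without a filter on low values the 1 member called for 4 minus 2 weeks in CKO hearts became 0, and with a filter at 3 FPKM it was 0, TAC in CKO hearts over both times gave 1 and CKO against control at 4 weeks after TAC gave 0. With only the compared groups in the fit, TAC gave 7 members at 2 weeks and 1 at 4 weeks in control hearts and 1 over both times and 0 at 2 weeks in CKO hearts, while 4 minus 2 weeks in CKO hearts and CKO against control at 4 weeks after TAC gave 0; this fit has fewer hearts. Without a trend in the prior the last of these was 0. Leaving out the 5 hearts in which Myl7 reached 10 FPKM, TAC in control hearts gave 11 over both times, 4 at 2 weeks and 6 at 4 weeks, TAC in CKO hearts 1, and 4 minus 2 weeks in CKO hearts and CKO against control at 4 weeks after TAC 0; the comparisons with the end of tamoxifen gave no value, since no CKO heart was left there. Leaving out the hearts with Myl7 also leaves fewer hearts, with control TAC heart 32 and control sham heart 12 alone in their groups. The cause was not tested in the other cases. Leaving out 1 heart at a time gave 16 to 23 members for TAC in control hearts over both times, 6 to 16 at 2 weeks and 2 to 15 at 4 weeks. In CKO hearts it gave 1 to 3 over both times, 1 to 4 at 2 weeks and 0 to 0 at 4 weeks. The difference of the responses gave 0 to 4, the 4 without control sham heart 6. The change between times gave 0 to 0 in control and 0 to 1 in CKO hearts. CKO against control gave 0 to 0 at 2 weeks and 0 to 1 at 4 weeks after TAC, 0 to 2 in sham hearts (2 without heart 6, Manf among them at -0.91, adjusted p = 0.044) and 0 to 0 at the end of tamoxifen. Sham against the end of tamoxifen gave 0 to 1, the 1 without CKO sham heart 14. A heart left alone in its group is taken to vary like the other groups. Pseudocount and scaling moved no count by over 1.5 times, and no scaling moved the median of all genes by over 0.1. Without heart 7, 20 of 434 member values changed sign, none of them called with or without it. For single members, 67 of the values under other settings were no longer called, with the same direction. No paired analysis was possible because each heart number occurs once in the labels. Absolute depth is unknown, and with 2 hearts a group the SE of TAC against sham in control hearts reached 0.24 for Chac1, one of the lowest members, and 0.20 for Sdf2l1.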
